A study of Mus musculus with 9 samples.

Results

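Among 9 fetal mouse lung RNA samples, 2 carried high counts of miR-208a, a microRNA (miRNA) made from an intron of a cardiac myosin gene. These were the samples labelled wild type 3 and mutant 8, selected on their raw miR-208a counts, 1202 in wild type 3 and 1271 in mutant 8, which exceeded 500. No sample lay near that cutoff, and the highest count below it was 54, in wild type 5. The samples were chosen by this count, so every difference from the other 7 samples is a description of these libraries and none was tested. Set against their lung label, both libraries held cardiac muscle miRNAs at high counts. Most epithelial miRNAs were low and several lay under the lane's background threshold, with miR-205 in mutant 8 an exception.

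Mutant 8 is 1 of 4 samples (6 to 9) labelled Bim3'UTRmut/mut, homozygous for an allele in which the untranslated region of the gene for the pro-apoptotic protein Bim is mutated, and wild type 3 is 1 of 5 wild type samples (1 to 5). All came from C57BL/6 embryos at E18.5, shortly before birth, and all are labelled as whole lung. The other 7 samples were wild type 1, 2, 4 and 5 and mutant 6, 7 and 9, so both genotypes stood on each side and the split is not one of genotype. The lane annotation lists sample 5 as mutant, whereas its sample label says wild type, and the label was followed. The labels give no litter, no sex and no pooling of embryos.

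Each lane of a NanoString nCounter mouse miRNA panel counted individual fluorescently barcoded molecules from 100 ng of total RNA, with no amplification. Mouse miRNA probes gave 206964 counts in wild type 3 and 251432 counts in mutant 8, against 220630 to 289227 in the other 7 samples. The mean of the 8 negative control probes was 37.5 and 34.6 counts in wild type 3 and mutant 8, against 28.1 to 79.1. The geometric mean of the 6 positive control probes was 1853 and 1555 counts, against 1373 to 1675, and the part these lane differences play in the results was not tested. A probe was described if its count exceeded its lane's threshold, set 2 SD above the mean negative control, in at least 2 samples. Of 566 mouse miRNA probes 230 did so, and 29 of the 230 reached that number only through wild type 3 and mutant 8. The thresholds were 68.6 and 65.1 counts in wild type 3 and mutant 8, against 56.3 to 198 in the other samples. Levels were compared as log2 CPM, counts scaled to the library of the 230 probes, and a probe was called higher if both samples exceeded the highest of the other 7 and lower if both lay under the lowest.

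MicroRNAs silence messenger RNAs that match their seed, bases 2 to 8, and many are restricted to 1 tissue. Striated muscle makes miR-1 and miR-133a in both heart and skeletal muscle, while miR-206 and miR-133b are skeletal. The heart adds a group of myosin-encoded miRNAs that lie in introns of myosin heavy chain genes, the so-called myomiRs. Epithelia, which line the airways and alveoli, are marked by the miR-200 family, and multiciliated airway cells by the miR-449 cluster. The panel holds markers both for the labelled organ and for the heart.

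The 3 myomiRs are shown, with the seed in capitals, because miR-208a chose the samples and the other two are its closest relatives on the panel. Sequences and positions here and below are RefSeq's on GRCm38.p6.
miR-208a: aUAAGACGagcaaaaagcuugu
miR-208b: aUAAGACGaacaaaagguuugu
miR-499: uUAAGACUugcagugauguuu
miR-208a lies at chr14:54949072-54949093 on the minus strand, within Myh6, the gene of the alpha (adult atrial and ventricular) myosin heavy chain. miR-208b lies at chr14:54975710-54975731 on the same strand, within Myh7, the gene of the beta chain of fetal ventricle and slow muscle. miR-499 lies at chr2:155622893-155622913 on the plus strand, within Myh7b. miR-208a and miR-208b share the seed UAAGACG and differ at 3 of 22 positions, and the seed of miR-499 is UAAGACU.

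The epithelial probes are shown because they were low where the myomiRs were high.
miR-200a: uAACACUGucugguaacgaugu
miR-141: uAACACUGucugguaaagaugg
miR-200b: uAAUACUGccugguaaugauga
miR-200c: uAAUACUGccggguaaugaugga
miR-429: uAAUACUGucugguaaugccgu
miR-449a: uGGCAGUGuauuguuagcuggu
The miR-200 family has 2 seeds, AACACUG in miR-200a and miR-141 and AAUACUG in the other members. Its genes lie in a pair of clusters. miR-200b, miR-200a and miR-429 start within chr4:156053916-156055721 and miR-200c and miR-141 within chr6:124717917-124718365, both on the minus strand. miR-449a lies at chr13:113037549-113037570 on the plus strand, within Cdc20b.

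Of the 230 probes, 31 (13.5%) were called higher in both samples and 51 (22.2%) lower, so that 82 (35.7%) lay outside the range of the other 7 in the same direction. At least 2-fold differences in group means were found for 19 higher probes (8.26%) and 20 lower probes (8.7%). The median difference over all 230 probes was -0.06 log2, and 148 probes overlapped. Of the 31 higher probes, 8 were among the 29 that passed the background threshold only through this pair. Among the 201 probes above threshold in at least 2 of the other 7 samples, 23 (11.4%) were higher. The balance of directions depended on scaling, since with scaling to the positive controls 18 were higher and 65 lower and the median difference of all probes was -0.43. It also moved when single samples were left out, with scaling estimated anew each time. Leaving out mutant 7 gave 64 higher and 34 lower probes, with a median difference of 0.20. With scaling held fixed, leaving out any of the other 7 only narrows their range and cannot remove a call. The fall in lower calls without mutant 7 therefore came with the new scaling. Leaving out mutant 8 gave 89 higher and 50 lower, and leaving out wild type 3 gave 46 higher and 81 lower. No called probe had the opposite call under any of the 5 other scalings, and 18 of 31 higher and 43 of 51 lower calls held under all of them.

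Correlations between samples divided along the same line. Across the 230 probes, the log2 CPM values of wild type 3 and mutant 8 correlated with Pearson's r of 0.970. Against each of the other 7 samples, r was 0.767 to 0.800 for wild type 3 and 0.783 to 0.819 for mutant 8. The 21 pairs among the other 7 gave 0.961 to 0.993. These are correlations across probes, which share abundance and probe efficiency and are not independent replicates. The 230 include miR-208a, which chose the samples, and the 29 probes that passed the filter only through this pair. Such probes widen the gap by selection, and r without them was not computed.

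**Figure D1:**
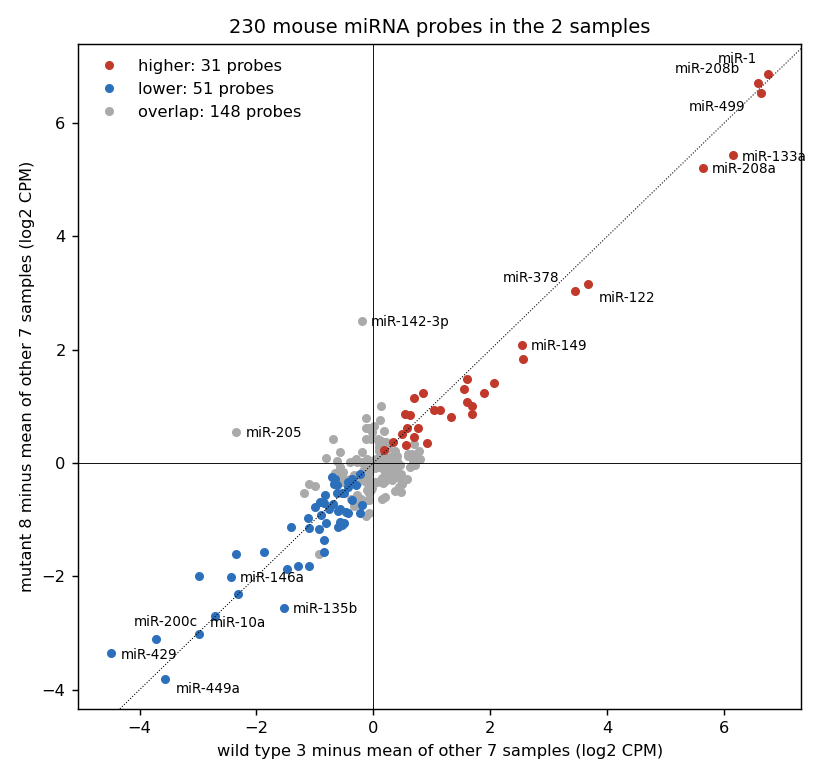
Difference of each of 230 mouse miRNA probes from the mean of the other 7 samples, in log2 CPM, for wild type 3 (horizontal axis) and mutant 8 (vertical axis). Red points are the 31 probes higher in both samples, blue points the 51 lower in both and grey points the 148 that overlap the other 7, and the dotted line marks equal differences. Most coloured points lie near that line, while miR-142-3p and miR-205 lie well off it.

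Of the 230 probes, 5 muscle miRNAs had the largest positive differences. miR-1, the most abundant miRNA of heart and skeletal muscle, had 9153 counts in wild type 3 and 14021 counts in mutant 8, against 66 to 147 in the other wild type samples and 127, 133 and 116 in mutant 6, 7 and 9. Both samples stood far above all the others, by a mean difference of 6.81 log2 where the other 7 varied by 0.48 (SD). Of the other 7 samples 4 exceeded their lane's threshold, so their mean partly reflects background. miR-1 was the 4th most counted probe in wild type 3 and the 3rd in mutant 8, against ranks 110 to 222 elsewhere. Counts of different probes also depend on probe efficiency, so such ranks are only approximate.

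miR-133a, made from the same transcripts as miR-1, had 6016 counts in wild type 3 and 5201 counts in mutant 8, against 77, 113, 97 and 162 in wild type 1, 2, 4 and 5 and 130, 114 and 98 in mutant 6, 7 and 9. Its difference was 5.80 ± 0.28 log2 (SD of the other 7), with 4 of the other 7 samples above threshold. miR-1 was the higher of the pair in both samples, at 1.52 times miR-133a in wild type 3 and 2.70 times in mutant 8. The ratio uses raw counts of 2 probes and is a comparison between samples, not of molecule numbers.

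miR-208b had 3750 counts in wild type 3 and 5797 counts in mutant 8, against 46, 39, 82 and 57 in wild type 1, 2, 4 and 5 and 53, 53 and 33 in mutant 6, 7 and 9. Its mean difference was 6.64 log2, with 1 of the other 7 samples above threshold. miR-499 had 2602 and 3460 counts in wild type 3 and mutant 8, against 26, 27, 49 and 53 in the other wild type samples and 30, 28 and 27 in the other mutants. None of the other 7 samples exceeded its lane's threshold for miR-499, so only a bound can be given, and it was at least 34.2-fold higher. Bounds of this kind set each dim count to its lane's threshold.

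miR-208a itself, which chose the samples, had 15, 29, 17 and 54 counts in wild type 1, 2, 4 and 5 and 24, 47 and 47 in mutant 6, 7 and 9, all below threshold, and was at least 14.1-fold higher in the pair.

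The skeletal muscle probes stood near background in most samples.
miR-206: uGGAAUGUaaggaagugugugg
miR-133b: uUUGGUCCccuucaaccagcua
Both are made from 1 locus, at chr1:20679055-20679076 and chr1:20682834-20682855. miR-206 had 71 counts in wild type 3 and 187 counts in mutant 8, against 62 to 116 in the other 7, so wild type 3 lay inside the range of the others and mutant 8 above it. miR-133b had 75 and 110 counts, against 46 to 93, and its call of higher held under 3 of 6 scalings. Its mature sequence is nearly that of miR-133a, whose counts here were far higher, so the miR-133b value is uncertain.

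Together, 6 of 7 muscle probes were called higher and none lower, with a median difference of 5.80 log2, or 5.10 with the background-limited probes at their bounds, against -0.06 over all probes, of which 13.5% were higher. The list includes miR-208a, which chose the samples, and 4 of the 7 (miR-499, miR-133b, miR-208b and that probe) passed the filter only through this pair, so the count and the median describe the list and support nothing further. Their summed counts were 22869 in wild type 3 and 30047 in mutant 8, compared with 378 to 636. They made up 11.7% and 12.5% of kept counts in wild type 3 and mutant 8, against 0.204% ± 0.0352 in the other samples (SD, n = 7). All 7 probes exceeded the lane threshold in both samples, while 0 to 4 did so in each other sample. In bulk RNA, a difference in the number of cells of a type cannot be told apart from a difference in RNA per cell.

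**Figure D2:**
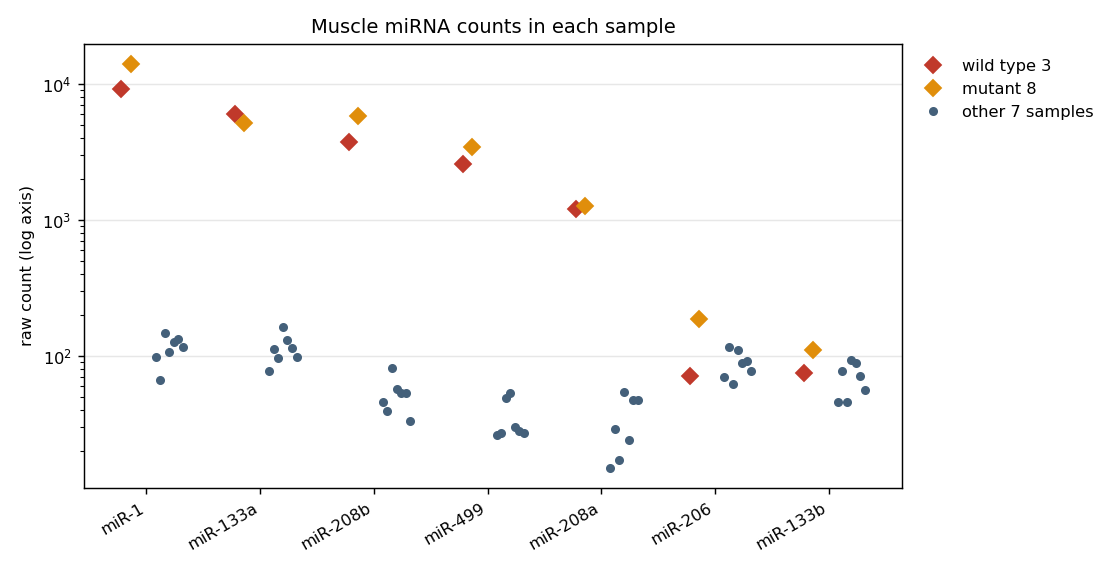
Raw counts of the 7 muscle miRNA probes in each sample, on a log axis, with wild type 3 and mutant 8 as diamonds and the other 7 samples as dots. For 5 probes the diamonds lie between 1202 and 14021 counts and the dots at or under 162, while for miR-206 and miR-133b all points lie at or under 187.

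The next higher probes were not muscle-specific. miR-122, a hepatocyte miRNA, had 812 counts in wild type 3 and 812 counts in mutant 8, against 84, 97, 74 and 67 in wild type 1, 2, 4 and 5 and 64, 43 and 232 in mutant 6, 7 and 9. Its difference was 3.42 log2, and the spread of the other 7, 0.80 (SD), was wide, with mutant 9 the highest of them. Only 3 of the other 7 exceeded their lane's threshold, so their mean and spread partly reflect background. The other probes of the liver list, miR-192 and miR-194, stayed below the filter, with 48 and 66 counts of miR-192 in wild type 3 and mutant 8, against 32 to 135, and 61 and 64 counts of miR-194, against 30 to 99.

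miR-378, which lies in the gene of the mitochondrial regulator PGC-1beta, had 1672 counts in wild type 3 and 1775 counts in mutant 8, against 229, 227, 172 and 214 in wild type 1, 2, 4 and 5 and 180 to 198 in the other mutants. The other 7 samples varied little (SD 0.10 log2) and both samples lay 3.24 log2 above them on average. miR-149, which lies within Gpc1, had 365 and 379 counts in wild type 3 and mutant 8, against 47 to 111. Its difference was 2.31 log2, with 3 of the other 7 samples above threshold. miR-504, within Fgf13, had 88 and 75 counts against 11 to 27, but none of the other samples exceeded threshold and no fold is given.

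miR-486, of erythroid cells and striated muscle, had 541 counts in wild type 3 and 494 counts in mutant 8, against 109 to 225, a difference of 1.74 log2. The other erythroid markers were not called. miR-451 had 1228 and 1553 counts in wild type 3 and mutant 8, against 1091 to 2641, and miR-144 had 84 and 143, against 65 to 141, and both were inside the range of the other 7 samples in CPM. So 1 of 3 erythroid probes was called higher and none lower, compared with 13.5% higher and 22.2% lower over all probes. Their median difference of 0.26 log2 was -0.11 with positive-control scaling.

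A further group of probes, outside the cell type marker lists, had moderate differences. miR-22 had 3889 counts in wild type 3 and 3475 counts in mutant 8, against 1029 to 2216, a difference of 1.35 log2. miR-532-5p had 772 and 699 counts, against 248 to 318, or 1.56 log2. Its neighbour on the X chromosome, miR-501-3p, had 75 and 74 counts, against 23 to 45, with none of the other samples above threshold, so it passed the filter only through this pair and no fold is given. miR-1983 had 656 and 531 counts, against 227 to 303, or 1.28 log2, and the hypoxia-induced miR-210 had 506 and 509 counts, against 209 to 308, or 1.07 log2. miR-21, often induced in injured heart and lung, had 516 and 1012 counts, against 263 to 599, and was called higher under 4 of 6 scalings.

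Several of the higher probes had a near-identical partner on the panel. Their sequences are given because a single base separates them.
miR-100: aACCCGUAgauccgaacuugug
miR-99a: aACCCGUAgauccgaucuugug
miR-107: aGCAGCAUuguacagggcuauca
miR-103: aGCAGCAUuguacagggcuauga
miR-100 had 315 counts in wild type 3 and 412 counts in mutant 8, against 101 to 174, a difference of 1.54 log2. miR-99a, which differs from it at 1 of 22 positions and was named after its values were seen, had 2263 and 1948 counts, against 1590 to 1970, and lay above the others in wild type 3 only, in CPM. miR-107, within Pank1, had 522 and 628 counts, against 182 to 286, a difference of 1.44 log2. miR-103, from Pank2 and Pank3 and different at 1 of 23 positions, had 501 and 901 counts, against 476 to 776, and lay above the others in mutant 8 only. These probes could share signal, so the split within each pair is uncertain. In the miR-99/100 and miR-125 families, 2 of 7 kept probes were called higher and none lower, with a median difference of 0.43 log2, compared with 13.5% higher and -0.06 over all probes. The other called member was miR-125b-5p, with 6520 counts in wild type 3 and 8036 counts in mutant 8, against 3329 to 4876.

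The miR-200 family held the lower end. miR-200c had 173 counts in wild type 3 and 380 counts in mutant 8, against 3356, 3293, 2950 and 3140 in wild type 1, 2, 4 and 5 and 3088, 3257 and 2495 in mutant 6, 7 and 9. The 2 groups were far apart, with a difference of -3.41 log2 and an SD of 0.15 among the other 7. After subtracting each lane's negative control mean, 5.94% of the level of the others remained in wild type 3 and 10.6% in mutant 8.

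miR-429 had 62 counts in wild type 3, and in mutant 8 it lay 10.2-fold below the mean of the other 7 samples, which had 2320, 1662, 1675 and 1871 counts in wild type 1, 2, 4 and 5 and 1614, 2217 and 2012 in mutant 6, 7 and 9. Its difference of -3.92 log2 was the lowest of all 230 probes, and in wild type 3 it was under the lane threshold. miR-200b had 218 and 311 counts in wild type 3 and mutant 8, against 1499 to 2262, a difference of -2.70 log2, and its 2 values were equal in CPM to within 0.01 log2. miR-200a had 68 and 98 counts, under threshold in wild type 3, against 278 to 581. miR-141 had 27 and 48 counts, against 88 to 176, under the lane threshold in both samples, so it was at least 1.82-fold lower.

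All 5 family members were called lower, from both clusters and both seeds, with a median difference of -2.70 log2. miR-141 and miR-200a differ at 2 of 22 positions, as do miR-200b and miR-200c. Probes this alike could share signal, so the 5 calls are not independent. Over all probes 22.2% were lower and the median was -0.06. The family made up 0.280% of kept counts in wild type 3 and 0.431% in mutant 8, compared with 3.03% ± 0.131 in the other samples (SD, n = 7). Its probes above lane threshold numbered 2 in wild type 3 and 4 in mutant 8, compared with 4 to 5 elsewhere. miR-200b and miR-200c stayed above threshold in both samples.

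miR-449a, of multiciliated cells, had 58 counts in wild type 3 and 70 counts in mutant 8, against 1189, 812, 869 and 926 in wild type 1, 2, 4 and 5 and 804, 1307 and 788 in mutant 6, 7 and 9. It lay under the threshold in wild type 3 and stood just above it in mutant 8, and its difference was -3.69 log2. miR-34b-3p, which serves the same cells, had 56 and 76 counts, against 52 to 130, and overlapped. The 4 other probes of that list (miR-34b-5p, miR-34c, miR-449b and miR-449c) did not pass the filter, and miR-34c was listed at 1 count in every sample.

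**Figure D3:**
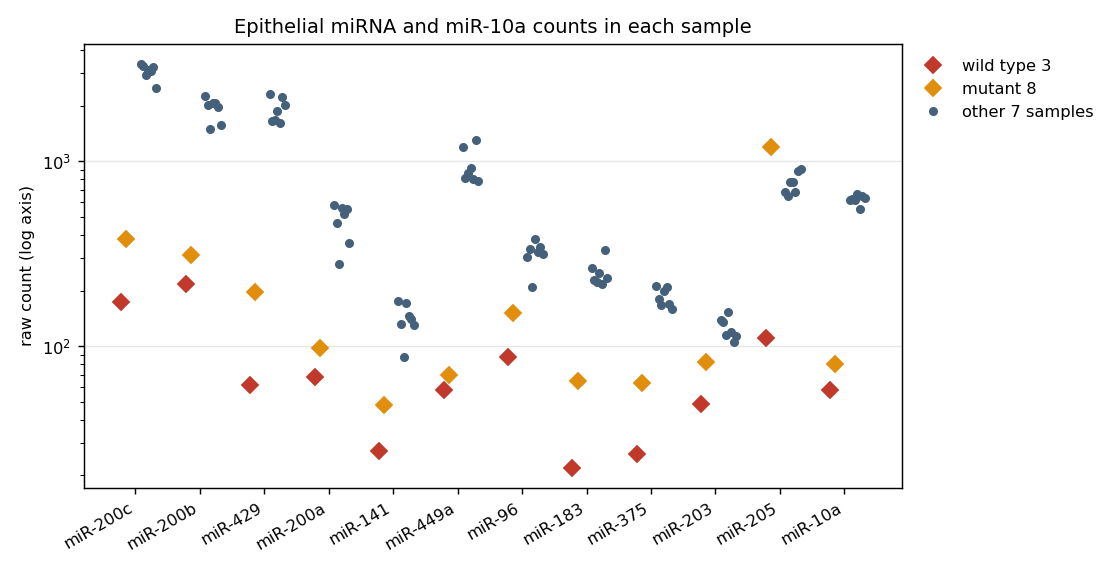
Raw counts of 11 epithelial miRNA probes and miR-10a in each sample, on a log axis, with wild type 3 and mutant 8 as diamonds and the other 7 samples as dots. Among them, miR-96 and miR-183 are not on the cell type marker lists and were named for their low values. The diamonds lie below all dots for every probe shown but miR-205, where wild type 3 lies below and mutant 8, at 1196 counts, above. The kept multiciliated probe miR-34b-3p, which overlapped the other 7 samples, is not shown.

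The markers of other epithelial cells were low in part. miR-375, a neuroendocrine miRNA, had 26 and 63 counts in wild type 3 and mutant 8, against 159 to 211, under threshold in both and at least 2.43-fold lower. miR-183, which is processed with miR-96 on chromosome 6 and marks sensory and other epithelia, had 22 and 65 counts, against 216 to 332, and was at least 3.25-fold lower. miR-96 had 87 and 152 counts, against 208 to 382, a difference of -1.27 log2. miR-203, a keratinocyte miRNA, had 49 and 82 counts, under threshold in wild type 3, against 105 to 154. miR-135b had 23 and 15 counts, against 65 to 134, and was at least 1.23-fold lower. miR-183, miR-96 and miR-135b were named for their low values and not as listed markers, so nothing is read from their direction.

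miR-205, a miRNA of basal cells, parted the 2 samples. It had 111 counts in wild type 3 and 1196 counts in mutant 8, against 683, 649, 773 and 769 in wild type 1, 2, 4 and 5 and 680, 886 and 915 in mutant 6, 7 and 9. Wild type 3 lay below every other sample and mutant 8 above every one. The 2 samples stood 2.90 log2 apart, the widest gap between them among the 230 probes. Of the 3 basal and neuroendocrine probes, 2 were called lower and none higher, with a median difference of -0.89 log2, compared with 22.2% lower and -0.06 over all probes.

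miR-10a was low in both samples, and its near copy miR-10b was not. They differ at 1 of 23 positions and share the seed ACCCUGU. Such probes could share signal, so the split between these 2 is uncertain.
miR-10a: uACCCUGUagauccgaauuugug
miR-10b: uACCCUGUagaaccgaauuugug
miR-10a lies within the Hoxb3 gene at chr11:96317186-96317208 and miR-10b in the Hoxd cluster at chr2:74726074-74726096, both on the plus strand. miR-10a had 58 counts in wild type 3 and 80 counts in mutant 8, against 617, 626, 619 and 668 in wild type 1, 2, 4 and 5 and 552, 646 and 635 in mutant 6, 7 and 9. The other 7 samples were tightly grouped above both, and wild type 3 was under its lane threshold, so no fold is given. miR-10b, which missed the filter with 1 sample above threshold and was named after its values were seen, had 64 and 131 counts, against 33 to 53. In that list 1 of 2 kept probes was lower, compared with 22.2% over all probes, and miR-196a overlapped.

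Most kept probes of the endothelial list were called lower. miR-126-3p, the endothelial miRNA within Egfl7, had 19097 counts in wild type 3 and 17303 counts in mutant 8, against 31766, 34642, 25451 and 32348 in wild type 1, 2, 4 and 5 and 28155, 30920 and 26639 in mutant 6, 7 and 9. It was the most counted probe in all 9 samples, and its difference was -0.56 log2 (SD of the other 7, 0.09). Without mutant 8, and with scaling estimated anew, the difference was 0.03. Under the main scaling wild type 3 alone differed by -0.23 log2. miR-126-5p, from the other arm of that hairpin, had 541 and 736 counts, against 692 to 1140, and overlapped in CPM. miR-221 had 27 and 26 counts, against 75 to 112, and was at least 1.21-fold lower. The list also holds both arms of miR-151. miR-151-5p had 723 and 710 counts, against 900 to 1292, and miR-151-3p had 64 and 69, against 93 to 149. Of 5 kept probes of the list 4 were called lower and none higher, and the 4 include both arms of miR-151. The median difference was -0.56 log2, or -0.47 with miR-221 at its bound, compared with 22.2% lower and -0.06 over all 230 probes.

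The smooth muscle and mesenchyme list was split. miR-199a-3p, a miRNA of mesenchyme, had 3887 counts in wild type 3 and 3375 counts in mutant 8, against 7195 to 11417, a difference of -1.20 log2. Its partner miR-199a-5p had 1416 and 1980 counts, against 2806 to 4852, or -0.91 log2, and miR-214, from the same transcript, had 73 and 87 counts, against 139 to 214, or -0.94 log2. The smooth muscle pair did not go with them. miR-145 had 5066 and 6299 counts, against 4504 to 7206, and overlapped, while miR-143 had 1470 and 2436 counts, against 908 to 1807, and was called higher under 4 of 6 scalings. In all, 3 of 5 probes were lower and 1 higher, with a median difference of -0.91 log2, compared with 22.2% lower and 13.5% higher over all probes.

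Blood cell markers also went different ways. miR-146a, induced by inflammatory signalling, had 171 counts in wild type 3 and 331 counts in mutant 8, against 1683, 1402, 925 and 1351 in wild type 1, 2, 4 and 5 and 1350, 1362 and 863 in mutant 6, 7 and 9. Both samples lay well below the others, by -2.22 log2. miR-223, of granulocytes and monocytes, had 187 and 186 counts, against 327 to 597, or -1.10 log2. miR-150, of lymphocytes, had 124 and 281 counts, against 217 to 536, and was below the others in wild type 3 only.

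miR-142-3p, expressed across blood cells, had 115 counts in wild type 3 and 1082 counts in mutant 8, against 161, 193, 98 and 251 in wild type 1, 2, 4 and 5 and 189, 174 and 201 in mutant 6, 7 and 9. Wild type 3 lay among the others, whereas mutant 8 was 5.71-fold above their mean. The opposite arm of the same hairpin did not show this, since miR-142-5p had 203 counts in wild type 3 and 199 counts in mutant 8, against 146 to 202. Of 5 kept myeloid and lymphoid probes, 2 were lower and none higher, with a median difference of -0.86 log2, compared with 22.2% lower and -0.06 over all probes.

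Neural markers overlapped throughout. None of the 3 kept probes (miR-124, miR-137 and miR-218) was called in either direction, and their median difference of 0.11 log2 was -0.26 with positive-control scaling and -0.23 with miR-124, which no other sample held above threshold, at its bound. miR-218, for example, had 382 and 630 counts in wild type 3 and mutant 8, against 332 to 547, and stood above the others in mutant 8 only.

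**Figure D4:**
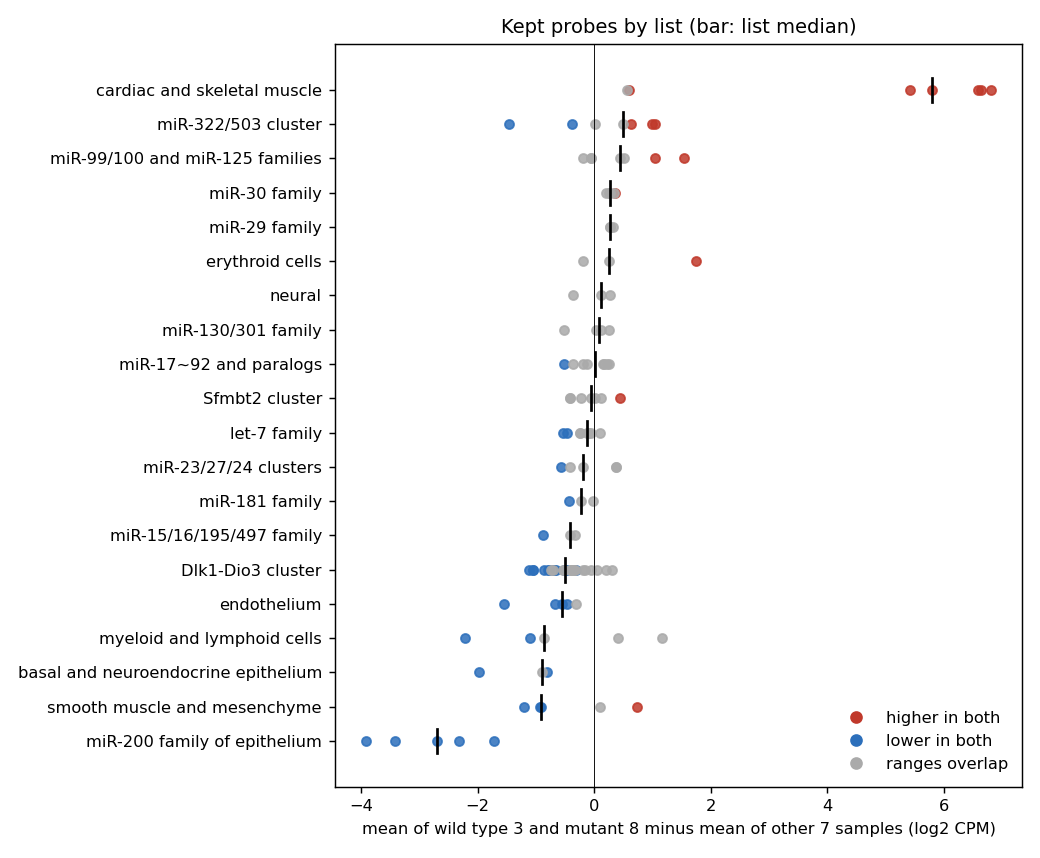
Mean log2 CPM of wild type 3 and mutant 8 minus the mean of the other 7 samples, for every kept probe of the 20 lists with at least 3 kept probes. Points are probes, coloured by whether both samples were above, below or overlapping the range of the others, and bars are list medians, from -2.70 for the miR-200 family to 5.80 for muscle.

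By name, 191 of the 230 probes matched a RefSeq mature miRNA, and probes within 10 kb of each other formed 37 clusters with at least 2 kept probes. Of these, 21 held calls in 1 direction only, 15 held none, and 1 held calls in both. In 13 of the 21 there was just 1 called probe, which cannot show both directions, and of the 9 clusters with at least 2 called probes 8 held 1 direction. Paralogous copies place some probes in more than 1 cluster.

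The cluster with both was the X-linked cluster of miR-322 and miR-503, whose kept probes start between chrX:53048008 and chrX:53054306 on the minus strand. It is made as 1 primary transcript, read from miR-322 to miR-450b. Its sequences are shown because its probes were called in both directions.
miR-322: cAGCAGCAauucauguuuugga
miR-503: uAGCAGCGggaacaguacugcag
miR-351: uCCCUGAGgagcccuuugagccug
miR-542-5p: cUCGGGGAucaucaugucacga
miR-450a-5p: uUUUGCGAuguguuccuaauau
miR-450b-3p: aUUGGGAAcauuuugcaugcau
miR-322 shares its seed AGCAGCA with miR-15a and miR-16, which restrain the cell cycle. It had 3098 counts in wild type 3 and 2718 counts in mutant 8, against 9786, 10574, 7007 and 11256 in wild type 1, 2, 4 and 5 and 8555, 9851 and 6439 in mutant 6, 7 and 9. Both samples lay well below all others, by -1.46 log2.

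At the other end, miR-450a-5p had 583 counts in wild type 3 and 1082 counts in mutant 8, against 455, 534, 370 and 517 in wild type 1, 2, 4 and 5 and 327, 480 and 364 in mutant 6, 7 and 9, and was 1.04 log2 higher. miR-450b-3p had 75 and 99 counts, against 37 to 63, with only 1 of the other 7 samples above threshold, so that it passed the filter only through this pair. Both calls held under 5 of 6 scalings. The probes between were closer to the rest and were named after their values were seen. miR-542-5p had 273 and 260 counts, against 128 to 250, and was called higher under 3 of 6 scalings. miR-542-3p had 89 and 85, against 43 to 101, and overlapped. miR-351 had 253 and 235, against 235 to 325, and in CPM it lay above the others in wild type 3 and below them in mutant 8. miR-503 had 79 and 121, against 123 to 186, and was called lower under 3 of 6 scalings. With positive-control scaling no probe of the cluster was called higher and 3 were lower. The median over its 7 kept probes was 0.50 log2, or 0.02 with miR-542-3p at its bound. Scaling moves all probes of a sample alike, so the gap between miR-322 and miR-450a-5p does not depend on it.

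**Figure D5:**
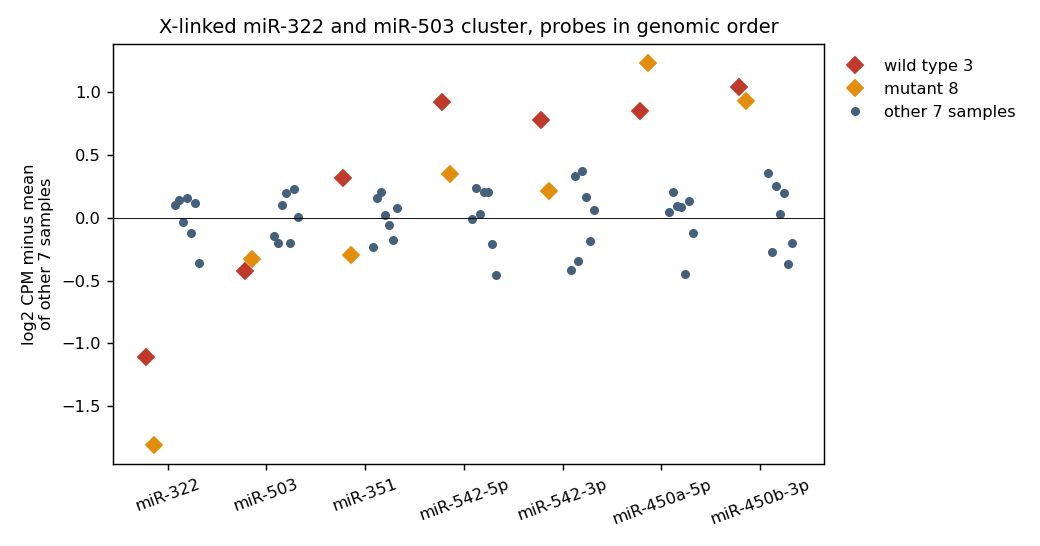
Log2 CPM of 7 probes of the X-linked cluster of miR-322 and miR-503 in each sample, minus the mean of the other 7 samples, with probes in their order along the primary transcript. Wild type 3 and mutant 8 (diamonds) lie below the other 7 samples (dots) for miR-322 and above them for miR-450a-5p and miR-450b-3p, the last of which had only 1 of the other 7 samples above threshold.

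The seed relatives of miR-322 were lower by less. miR-15a, named after its values were seen, had 1309 counts in wild type 3 and 2173 counts in mutant 8, against 2668 to 3890, a difference of -0.88 log2. miR-16 had 8120 and 14890 counts, against 13749 to 19223, and lay below the others in wild type 3 only. Among miR-15, miR-16 and their relatives, 1 of 3 kept probes was lower and none higher, with a median difference of -0.41 log2, compared with 22.2% lower and -0.06 over all probes.

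The imprinted Dlk1-Dio3 cluster on chromosome 12, which is active in embryonic tissue, supplied 32 kept probes of the 63 on the panel. None was called higher and 15 were lower, with a median difference of -0.50 log2. Over all probes 13.5% were higher and 22.2% lower, with a median of -0.06. Over the 6 scalings the cluster's lower calls numbered 12 to 22, where 44 to 68 of all probes were lower. Its probes made up 2.13% of kept counts in wild type 3 and 2.55% in mutant 8, compared with 3.40% ± 0.120 (SD, n = 7). Its named members included miR-382, with 368 and 450 counts against 784 to 1032 (-1.05 log2), and miR-376c, with 200 and 319 against 414 to 726 (-1.05 log2). miR-1193 had 32 and 44 counts, against 82 to 106, and was at least 1.24-fold lower. miR-672, an X-linked miRNA within Nexmif and outside this cluster, had 67 and 72 counts, under threshold in wild type 3, against 188 to 306.

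Several families are common to most tissues. The let-7 family, which promotes differentiation, made up 21.5% of kept counts in wild type 3 and 20.3% in mutant 8, compared with 22.6% ± 0.682 in the other 7 samples (SD, n = 7). Of its 9 probes 2, let-7b and let-7f, were lower and none higher, with a median difference of -0.13 log2. That share is the 22.2% lower over all probes, whose median was -0.06, so nothing is read from it. In the miR-17~92 cluster and its paralogs, whose seed matches in Bim are the subject of the mutation, 1 of 8 kept probes (miR-25) was lower and none higher, with a median difference of 0.01 log2 that was -0.37 with positive-control, -0.10 with 100-probe and -0.09 with housekeeping scaling. In the miR-30 family 1 of 5 was higher (miR-30d, in only some scalings), in the miR-29 family none of 3, and in the miR-130 and miR-301 family none of 4, and their medians of 0.28, 0.27 and 0.07 log2 were -0.10, -0.11 and -0.30 with positive-control scaling. The last was also -0.03 with 100-probe and with housekeeping scaling. In the miR-23/27/24 clusters 1 of 5 probes was lower and none higher (median -0.19 log2), and in the miR-181 family 1 of 3 was lower and none higher (median -0.23). In the Sfmbt2 cluster 1 of 7 was higher and none lower, with a median of -0.05 log2 that was 0.04 with DESeq2 size factors. Over all probes 13.5% were higher and 22.2% lower, so nothing is read from the few calls in these families.

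The panel also counts 4 housekeeping messenger RNAs, which are outside the miRNA total and are given as raw counts. Gapdh, a glycolytic enzyme, had 1663 counts in wild type 3 and 1349 counts in mutant 8, against 386, 477, 469 and 429 in wild type 1, 2, 4 and 5 and 395, 336 and 533 in mutant 6, 7 and 9. Actb, the cytoplasmic actin of non-muscle cells, had 2773 and 4329 counts in wild type 3 and mutant 8, against 9668, 10941, 9029 and 8619 in wild type 1, 2, 4 and 5 and 8299, 8058 and 9353 in mutant 6, 7 and 9. These 2 messengers thus went opposite ways, and the ratio of Actb to Gapdh was 1.67 in wild type 3 and 3.21 in mutant 8, compared with 17.5 to 25.0.

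Rpl19, a ribosomal protein messenger, had 1918 and 2165 counts in wild type 3 and mutant 8, against 2264 to 2836, just below the others. It overlapped after scaling to the miRNA total, to the 100 most abundant probes or with the second lanes of samples 1, 5 and 6. B2m, the light chain of MHC class I, had 344 and 522 counts, against 445 to 709, and overlapped through mutant 8. So 3 of 4 housekeeping messengers lay outside the range of the other 7 in raw counts, and 2 did so under those alternatives.

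Within the pair, mutant 8 exceeded wild type 3 most for miR-205 and miR-142-3p, by 2.90 and 2.71 log2, and next for miR-429, which was under threshold in wild type 3, miR-106b, by 1.10, and miR-183, which was under threshold in both. miR-106b had 119 counts in wild type 3 and 367 counts in mutant 8, against 207 to 314. In the other direction, mutant 8 minus wild type 3 was -0.81 log2 for miR-1983, which was higher than the others in both samples, and -0.80 for miR-204. The remaining probes named that way were miR-135b, under threshold in both, and miR-670 and miR-202-5p, with 82 and 74 counts in wild type 3 and 58 and 57 counts in mutant 8, where both were under threshold. miR-204 had 126 counts in wild type 3 and 102 counts in mutant 8, against 150 to 246. The 5 highest muscle probes ran from 0.12 for miR-208b to -0.72 for miR-133a. With 1 sample of each genotype in the pair, an effect of genotype cannot be told apart from other differences between the 2 samples.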

How the data were processed

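The authors deposited raw counts for each probe of the nCounter mouse miRNA panel, per the file headers, with no background step or normalization given in the sources used here. A second deposited table gave counts lane by lane for 12 lanes, as samples 1, 5 and 6 occupied a second one. The first lane was used, and it matched the main table in 5634 of 5634 values. Sample groups came from the labels.

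The samples, the members and the 28 lists were chosen with earlier results of these data known. The split rests on a measured count, so no difference between the pair and the other 7 was tested. Dixon's limit served only to list single values within a genotype in the closing section. Counts of the 230 kept probes were scaled with edgeR 4.0.16 (TMM, prior count 2 for log2 CPM) in R 4.3.3. Named probes were all kept cell type markers, the 20 largest called differences in each direction, the 5 largest differences each way within the pair, the 5 most abundant probes per sample and the most abundant member of each family. Others were chosen after their values were seen.

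Alternatives were total-count, DESeq2 1.42.0 size factor, positive-control, housekeeping and 100-probe scaling, other filters, background subtraction, prior count 0.5, the second lanes and leaving out each sample. A filter on the other 7 samples was added after seeing the data. The calling rule was checked on simulated data. Names and sequences are RefSeq's (GRCm38.p6). Tables used pandas 2.3.3 and numpy 2.4.6 in Python 3.11.15, and figures matplotlib 3.10.9. Repeat lanes count as 1 replicate. Counting error alone is small for probes with high counts and larger for the faint ones, and no interval is given.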

Additional observations from a re-analysis of the deposited data

Results flagged for a closer look

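Within the labelled genotypes, the gap of the highest or lowest sample to its nearest neighbour was set against the group's range for the named probes and housekeeping messengers, in 164 groups of 4 or 5 samples. It exceeded the 95% limit of Dixon's test in 54 groups. Chance marks about 1 in 20 groups of probes picked without regard to their values, but many of these probes, miR-208a included, were named for their difference in this pair, so the 54 cannot be read against that rate and the list is a description. Of the 54 values, 35 lay in wild type 3 and 16 in mutant 8. Values below are log2 CPM unless given as counts.

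In wild type 3, the muscle probes miR-1 (15.60), miR-208b (14.31), miR-499 (13.78), miR-208a (12.67) and miR-133a (14.99) stood above the other 4 wild type samples. So did miR-378 (13.14), miR-122 (12.10), miR-149 (10.95), miR-504 (8.92), miR-486 (11.52) and miR-142-5p (10.11). The probes miR-22 (14.36), miR-532-5p (12.03), miR-100 (10.74), miR-210 (11.42) and miR-450a-5p (11.63) did as well. Epithelial markers stood below, namely miR-200a (8.56), miR-200b (10.21), miR-200c (9.88), miR-429 (8.43), miR-449a (8.33), miR-203 (8.10), miR-205 (9.25) and miR-375 (7.22). Also below were miR-183 (6.99), miR-96 (8.90) and miR-135b (7.05), which were named for their low values. The blood cell probes miR-146a (9.87) and miR-150 (9.41) stood below too, as did miR-10a (8.33), miR-322 (14.03), miR-672 (8.53) and miR-1193 (7.503). The messengers Actb, with 2773 counts, and Gapdh, with 1663 counts, lay apart in opposite directions.

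In mutant 8, miR-1 (15.70), miR-133a (14.27), miR-208b (14.43), miR-499 (13.68), miR-206 (9.49), miR-378 (12.72) and miR-142-3p (12.01) stood above the other 3 mutant samples. miR-200b (10.21), miR-200c (10.50), miR-429 (9.55), miR-141 (7.57), miR-375 (7.95), miR-96 (9.19), miR-221 (6.74), miR-10a (8.28) and miR-672 (8.14) stood below them.

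The 3 other values were miR-218 in mutant 6 (10.35), miR-30c in mutant 9 (13.15) and the miR-466a-3p/miR-466b-3-3p probe in wild type 4 (9.71). No explanation was tested for any of these values.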

How the results depend on the processing

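No paired analysis was possible because wild type samples are numbered 1 to 5 and mutant samples 6 to 9, so no replicate number is shared. Against 31 probes higher, 51 lower, 19 at least 2-fold higher and 20 at least 2-fold lower, positive-control scaling gave 18 higher and 37 at least 2-fold lower, and a filter in all 9 samples gave 20, 23, 10 and 6 of 112 probes, where fewer probes were described. With no filter 65 of 566 were higher. The filter on the other 7 samples, added after seeing the data, gave 23, 51, 14 and 20. Leaving out each sample gave 31 to 89 higher, 34 to 81 lower, 18 to 24 at least 2-fold higher and 14 to 25 at least 2-fold lower. Scaling was estimated anew each time, which can remove calls even when a sample of the other 7 is left out. The extremes came without mutant 7 (64 higher, 34 lower), mutant 8 (89 higher) and wild type 3 (81 lower). Without 1 of the pair, only 1 sample had to lie outside the range. Housekeeping messengers outside the range numbered 3 to 4. Of 1515 single-probe values over 78 probes, 1236 stayed within 1 SD and 277 moved further. Changes of sign were set apart only for the 51 called probes. There were 2, miR-126-3p (0.0287) and miR-151-5p (0.0575), both without mutant 8. Sign changes of uncalled probes are among the other values. Leaving out each sample gave -0.88 to 0.0287 for miR-126-3p and -0.74 to 0.0575 for miR-151-5p. Scaling was estimated anew in these runs. Under the main scaling wild type 3 alone differed from the other 7 by -0.23 for miR-126-3p and -0.20 for miR-151-5p. Counts near the lane threshold limit the faint probes. Bounds are given only for probes under threshold in every sample on 1 side of the split.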

Other observations

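Several probes that did not pass the background filter, chosen after their values were seen, lay outside the counts of the other 7 samples. miR-182, made with miR-183 and miR-96, had 10 counts in wild type 3 and 19 counts in mutant 8, against 30 to 50. miR-195, a relative of miR-16, had 27 and 26 counts, against 32 to 70. miR-532-3p, the other arm of the miR-532-5p hairpin, had 61 and 80 counts in wild type 3 and mutant 8, against 24 to 46. The neural miR-9 had 33 and 66 counts, against 11 to 25. At most 1 sample exceeded its lane threshold for each of these probes, and they are given as raw counts only.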
